A study of Arabidopsis thaliana with 16 samples.

Results

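The question was whether indole-3-acetic acid (IAA) changed root transcripts by a different amount in the ethylene-insensitive mutant ein2 than in wild-type Col. For each probe set the quantity was the interaction, which is the IAA effect in ein2 (ein2 IAA minus ein2 mock) minus the IAA effect in Col (Col IAA minus Col mock). The members were all probe sets, Affymetrix controls left out, with a log2 value above 4 in at least 2 of the 16 arrays of the series. These were 14244 of 22746 probe sets, and 8 of the 16 arrays entered the interaction. Of the 14244 tested probe sets, 7664 had 1 locus in the annotation, 308 had several genes, 78 had a name without a locus code and 6194 were unlisted, so they were counted and not named. The filter used level alone, and its edge ran between AT4G04300, whose second-highest array read 4.0007 (interaction -0.255), and OTP43, whose second-highest array read 3.9996 (interaction -0.072).

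Both genotypes were Arabidopsis thaliana seedlings grown for 3 days in darkness at 22 °C. The 4 groups were ein2 in IAA, ein2 in mock, Col in IAA and Col in mock, with 2 arrays each that the series calls biological replicates. The ein2 plants carried the single allele ein2-5, and Col was Col-0. IAA was sprayed at 1 µM in 0.01% ethanol, mock was the 0.01% ethanol alone, and both were left for 4 h. Whole roots were cut from the hypocotyls and profiled in bulk, so fewer cells of a type and less RNA per cell cannot be told apart. The other 8 arrays held Col and aux1-7 roots in ethylene or in air and served for the estimate of spread and for the ethylene effects quoted below.

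IAA is the main natural auxin. It acts through nuclear receptors that remove Aux/IAA repressors, and genes that respond fast include those for GH3 enzymes, which conjugate IAA to amino acids, and LBD transcription factors, which start lateral roots. EIN2 carries the ethylene signal from the receptors at the endoplasmic reticulum to the transcription factors in the nucleus, and plants without it do not respond to ethylene. Auxin and ethylene both restrain root elongation, and each hormone is known to raise the synthesis or the signalling of the other in roots.

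One Col mock array stood apart from the rest of the auxin experiment in photosynthesis genes, which were chosen after their values were seen. In Col mock replicate 1, PSAN, a photosystem I subunit, read 6.83, against 2.95 to 4.13 in the other 7 arrays of the auxin experiment. LHCB4.1, a light-harvesting protein of photosystem II, read 8.62, against 5.21 to 6.32, and AT1G74470, a geranylgeranyl reductase of chlorophyll synthesis, read 8.03, against 3.46 to 3.68. LHCB4.3 read 6.69, against 5.59 to 6.54. Group means in the ethylene experiment were higher than those ranges for PSAN (5.075 to 5.96) and LHCB4.1 (6.72 to 7.65). They were 3.69 to 3.89 for AT1G74470 and 6.37 to 6.74 for LHCB4.3. No gene of the list of green-tissue markers had a tested named probe set.

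No interaction passed the test. limma called 0 of 14244 probe sets (0%) at a Benjamini-Hochberg adjusted p under 0.05, and 631 (4.43%) had an unadjusted p under 0.05, of which 292 (2.05%) lay above 0 and 339 (2.38%) below 0. With a term for the replicate number, 5 interactions were called (AT3G47480, AT1G64405, LBD29, AT5G55050 and an unlisted probe set, adjusted p = 0.0459 each). The median SE of an interaction was 0.219 log2 units (quartiles 0.178 and 0.287), so that the 95% interval of a typical probe set reached 0.481 to either side. The whole interval lay within a 2-fold difference for 11730 probe sets (82.4%), and for the others the interval reached 2-fold or more. IAA itself was called in ein2 for 456 probe sets (3.2%), of which 271 rose (1.9%) and 185 fell (1.3%). It was called in Col for 973 (6.83%), of which 582 rose (4.09%) and 391 fell (2.75%). These are counts of calls in each genotype, and the difference between them is tested only by the interaction. The count in ein2 was 201 to 236 with either ein2 IAA or either ein2 mock array left out. The count in Col was 413 to 516 with either Col IAA or either Col mock array left out.

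The IAA-responsive transcripts were then taken from the mean IAA effect over both genotypes, a contrast that is independent of the interaction in a design with equal group sizes. It called 1688 probe sets (11.9%), of which 911 rose (6.4%) and 777 fell (5.45%), and 1035 to 1211 with 1 of the 8 arrays left out. The median IAA effect was smaller in size in ein2. In the 911 raised probe sets the median IAA effect was 0.48 log2 units in ein2 and 0.64 in Col, and the median interaction was -0.18 (quartiles -0.355 and 0.02), against -0.02 over all tested probe sets. The interaction lay below 0 in 670 of the 911 (73.5%), against 7575 (53.2%) over all. With 1 of the 8 arrays left out, that share was 66.2% to 70.4% without an ein2 array and 73.5% to 75.7% without a Col array. Those lists were called anew with unequal group sizes, where the mean IAA effect and the interaction are not independent. In the 777 lowered probe sets the median IAA effect was -0.46 in ein2 and -0.56 in Col, the median interaction was 0.09, and 508 (65.4%) lay above 0, against 46.8% over all. With 1 array left out, the lowered median was higher without any of the Col arrays than without any of the ein2 arrays. These lists too were called anew with unequal group sizes, so the shifts cannot be laid to particular arrays. The lowered median was 0.033 (55.2% above 0) without ein2 mock replicate 1 and 0.116 without ein2 mock replicate 2. It was 0.087 without ein2 IAA replicate 1 and 0.062 (57.1%) without ein2 IAA replicate 2. It was 0.144 without Col IAA replicate 1, 0.171 without Col IAA replicate 2 and 0.163 without either Col mock array. These shares describe the probe sets and carry no test, since probe sets measured on the same arrays are not replicates.

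Splitting the interaction into its levels showed where the raised transcripts differed between the genotypes. The median of ein2 minus Col was -0.001 in IAA and 0.19 in mock, so the typical raised transcript stood higher in ein2 roots under mock, with a median difference near 0 after IAA. The difference in mock was above 0 for 660 of 911 (72.4%), against 54.3% over all. Over all tested probe sets, ein2 minus Col was called in IAA for 1016 (7.13%), of which 563 were higher in ein2 (3.95%) and 453 lower (3.18%). Among the 911 raised, 59 were higher in IAA (6.48%) and 42 lower (4.61%). In mock, ein2 minus Col was called for 1558 probe sets (10.9%), with 751 higher in ein2 (5.27%) and 807 lower (5.67%). Among the 911 raised, 124 were higher in mock (13.6%) and 44 lower (4.83%). The counts over all probe sets were 515 to 676 in IAA with an IAA array left out and 787 to 865 in mock with a mock array left out.

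In the lowered transcripts the median of ein2 minus Col was 0.14 in IAA and 0.055 in mock. The gap between these medians varied in lists called anew with 1 array left out, where group sizes are unequal. Leaving out ein2 IAA replicate 2 gave 0.116 in IAA and 0.107 in mock. Omitting ein2 mock replicate 1 gave 0.136 in IAA and 0.102 in mock, and omitting ein2 IAA replicate 1 gave 0.075 in IAA and 0.005 in mock. Omitting ein2 mock replicate 2 gave 0.189 in IAA and 0.085 in mock. Without a Col array the medians were 0.15 to 0.232 in IAA and 0.03 to 0.068 in mock. In IAA, 88 of the 777 were higher in ein2 (11.3%) and 37 lower (4.76%). In mock, 83 were higher (10.7%) and 81 lower (10.4%). Because the interaction is the difference in IAA minus the difference in mock, these counts and the interaction share arrays and do not support each other.

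The levels in each array showed the same split. The median of the raised probe sets, as a deviation from each probe set's mean over the 8 arrays, was 0.293 and 0.305 in the ein2 IAA arrays and -0.212 and -0.19 in the ein2 mock arrays. It was 0.294 and 0.263 in the Col IAA arrays and -0.404 and -0.378 in the Col mock arrays. The ein2 mock arrays therefore stood above both Col mock arrays, while the IAA arrays of the genotypes overlapped. For the lowered probe sets the medians were -0.2 and -0.195 in ein2 IAA, 0.261 and 0.322 in ein2 mock, -0.346 and -0.306 in Col IAA, and 0.226 and 0.257 in Col mock. Here both ein2 arrays stood above both Col arrays in each treatment, by a wider gap in IAA. The SD between the arrays of a group was 0.017 for the raised and 0.028 for the lowered medians, and the medians over all tested probe sets lay between -0.026 and 0.019. The shift in mock of the raised probe sets was 0.17 after each array was centred on its median, against 0.19 as deposited.

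**Figure D1:**
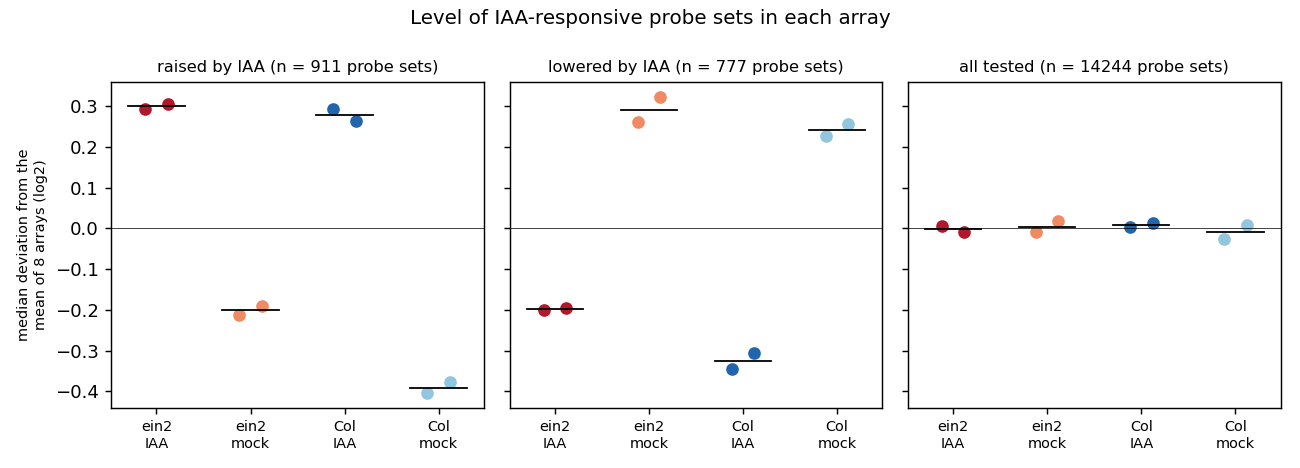
Median deviation of the probe sets raised by IAA (left), lowered by IAA (middle) and of all tested probe sets (right) from their mean over the 8 arrays, in log2 units, with 1 point per array. The ein2 mock arrays of the raised probe sets (-0.212 and -0.19) lie above the Col mock arrays (-0.404 and -0.378), and the IAA arrays of both genotypes lie between 0.263 and 0.305.

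Without Col mock replicate 1, 623 probe sets were raised, 458 of them (73.5%) had an interaction below 0, and the median mock difference was 0.22. That list was called anew with unequal group sizes, where the mean IAA effect and the interaction are not independent. It therefore cannot show whether the pattern of the raised transcripts holds without this array. Of those 623, 53 were higher in ein2 mock (8.51%), against 2.61% over all.

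Probe sets with an unadjusted interaction p under 0.05 were sorted by the level that differed more. A probe set was put on the IAA side where the genotype difference in IAA was at least 2 times that in mock in size, on the mock side where the reverse held, and otherwise in both. Of the 631, 153 lay on the IAA side (24.2%), 299 on the mock side (47.4%) and 179 in both (28.4%), against 20.7%, 29.7% and 49.6% of all tested probe sets. Selection on the interaction removes probe sets with alike differences at both levels, so the lower share in both follows from it. Those in both with the same sign were 61 of the 631 and 5759 of all 14244. The 631 (4.43%) were also fewer than the 5% expected with no interaction at all, so the split only describes them. The order of the first 2 counts reversed without ein2 IAA replicate 1 and held without any other single array, most narrowly without Col IAA replicate 1. Without ein2 IAA replicate 1 the IAA side held 160 and the mock side 155, and without Col IAA replicate 1 they held 155 and 174. Among the 109 of them that IAA raised with an interaction below 0, 18 lay on the IAA side, 56 on the mock side and 35 in both. Among the 39 raised with an interaction above 0, 21 lay on the IAA side, 6 on the mock side and 12 in both. Among the 60 lowered with an interaction above 0, 25 lay on the IAA side, 17 on the mock side and 18 in both.

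Of the 12 single-locus probe sets with the smallest p below 0, 9 rose with IAA on the mean over both genotypes, 5 were lower in ein2 IAA and 7 were higher in ein2 mock. Of all tested probe sets, 6.4% rose on the mean, 3.18% were lower in ein2 IAA and 5.27% were higher in ein2 mock. Choice by the interaction favours such genotype calls, so the counts only describe these genes. All 12 were separated, meaning that every ein2 IAA-minus-mock difference lay beyond every such Col difference. Separation uses the same arrays as the p value that picked these genes. It therefore follows largely from the choice and is no further support. Separation was met by 3128 of the tested probe sets (22%), 1848 of them below 0 (13%) and 1280 above 0 (8.99%). Adjusted p values of the 12 ran between 0.0655 and 0.811 (limma).

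The smallest p below 0 belonged to AT3G47480, which encodes an EF-hand calcium-binding protein. It read 3.57 and 4.01 in ein2 IAA, 3.32 and 3.45 in ein2 mock, 5.81 and 6.31 in Col IAA, and 3.46 and 3.27 in Col mock. Only the Col IAA arrays were high, and the other 6 arrays lay close together. The IAA effect was 0.40 in ein2 (adjusted p = 0.418) and 2.69 in Col (adjusted p = 1.75e-05), and the interaction was -2.29 ± 0.29 (SE, n = 2 arrays per group, adjusted p = 0.0655, limma), with a 95% interval of -2.93 to -1.65. Its level in IAA was 4.82-fold lower in ein2 than in Col (-2.27 ± 0.21, adjusted p = 4.08e-05), and in mock ein2 minus Col was 0.02 ± 0.21. With each array left out in turn the interaction ran between -2.54 and -2.04.

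AT1G64405, which had the largest fold increase by mean IAA effect among the 5 raised genes with the smallest p, showed the mock-side form. It read 9.60 and 9.50 in ein2 IAA, 5.74 and 5.39 in ein2 mock, 9.46 and 9.67 in Col IAA, and 3.815 and 3.89 in Col mock. The IAA arrays of the genotypes overlapped and the ein2 mock arrays stood above the Col mock arrays. IAA raised it by 3.99 in ein2 and by 5.71 in Col, and the interaction was -1.72 ± 0.23 (adjusted p = 0.0655, limma). In IAA ein2 minus Col was -0.01 ± 0.16, and in mock it was 3.27-fold higher in ein2 (1.71 ± 0.16, adjusted p = 4.1e-05). With each array left out in turn the interaction of AT1G64405 ran between -1.90 and -1.55.

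The other genes of this direction divided in the same way. AT4G35210, a protein of unknown function, read 4.20 and 3.67 in ein2 IAA, 2.895 and 2.98 in ein2 mock, 5.065 and 5.045 in Col IAA, and 2.92 and 2.88 in Col mock. All mock arrays were low, and the Col IAA arrays were above the ein2 IAA arrays. Its interaction was -1.16 ± 0.24 (adjusted p = 0.709), its IAA level was lower in ein2 (-1.12 ± 0.17, adjusted p = 0.00168), and ethylene raised it in Col by 2.49 (adjusted p = 5.42e-06). The class III peroxidase gene AT5G24070 read 3.25 and 2.99 in ein2 IAA, 3.70 and 3.83 in ein2 mock, 4.07 and 4.83 in Col IAA, and 3.88 and 3.81 in Col mock. It was lower in ein2 IAA (-1.33 ± 0.21, adjusted p = 0.00209) while IAA was called in neither genotype.

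AT1G62770, which belongs to the pectin methylesterase inhibitors, proteins that keep wall pectin methylated, rose in both genotypes. It read 10.1 and 10.1 in ein2 IAA, 7.50 and 7.59 in ein2 mock, 10.9 and 10.7 in Col IAA, and 7.31 and 6.93 in Col mock. The ein2 arrays were the lower ones in IAA and the higher ones in mock. The rise was 2.56 in ein2 and 3.70 in Col, with an interaction of -1.14 ± 0.24 (adjusted p = 0.709). AT5G47550, a cystatin, which inhibits cysteine proteases, rose by 1.61 in ein2 and by 2.66 in Col, with an interaction of -1.04 ± 0.24 and a higher mock level in ein2 (0.65 ± 0.17, adjusted p = 0.0274).

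On the mock side stood AT1G66800, a reductase-like protein with an NAD-binding fold. It read 10.6 and 10.7 in ein2 IAA, 10.2 and 10.3 in ein2 mock, 10.4 and 10.5 in Col IAA, and 9.33 and 9.02 in Col mock. The Col mock arrays alone were low. It was higher in ein2 mock (1.085 ± 0.15, adjusted p = 0.000711), the IAA effect was 0.40 in ein2 (adjusted p = 0.22) and 1.27 in Col (adjusted p = 0.000444), and the interaction was -0.87 ± 0.21 (adjusted p = 0.811). AT3G57780 behaved alike in mock (1.17 ± 0.23, adjusted p = 0.00774), with an interaction of -1.33 ± 0.33. Of the remaining 4, AT1G80245, AT2G21440 and AT1G03830 were higher in ein2 mock by 0.54 to 0.87, with interactions of -1.40, -0.82 and -0.73. AT4G19440 was lower in ein2 IAA (-0.60, adjusted p = 0.0462), with an interaction of -0.96.

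**Figure D2:**
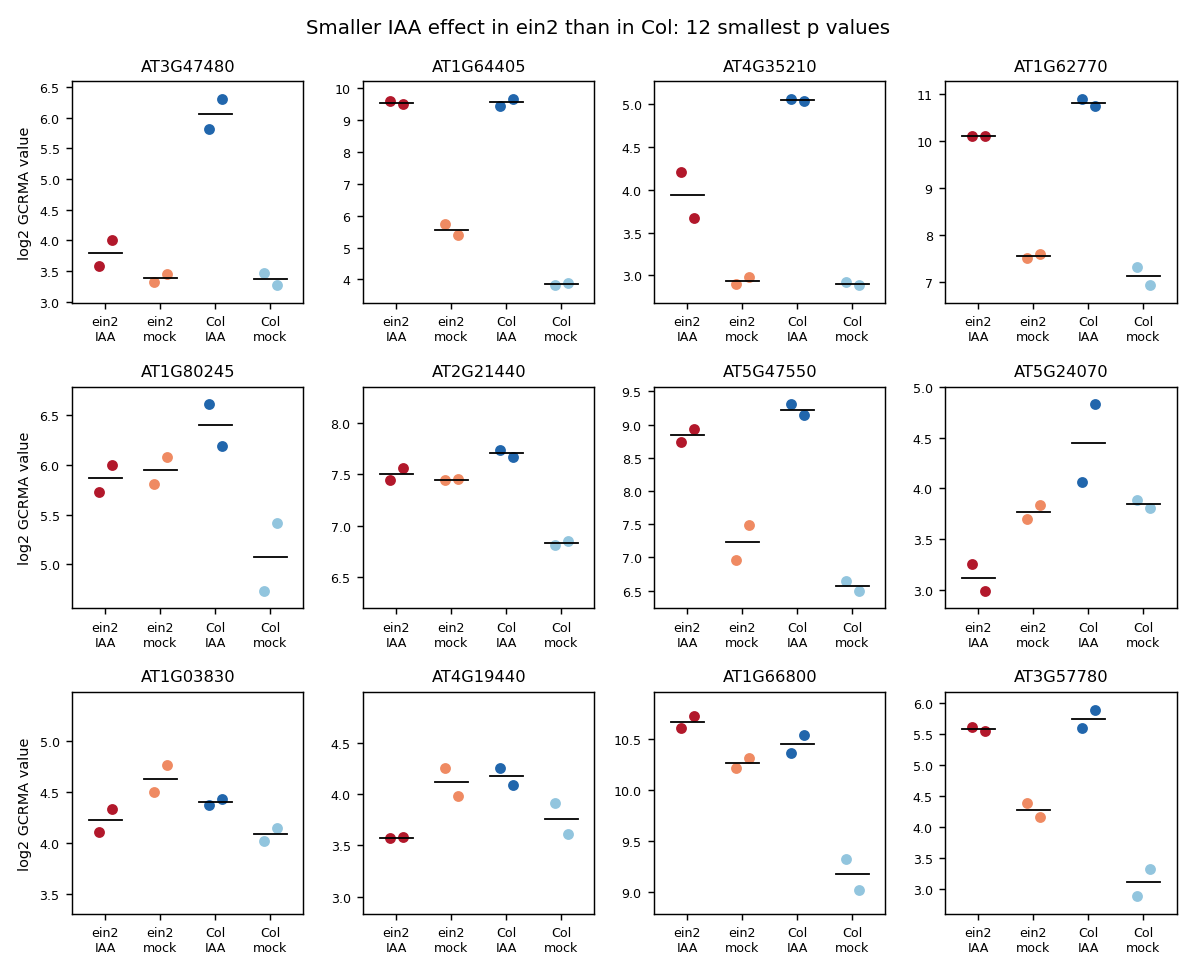
Log2 GCRMA values of the 12 single-locus genes with the smallest interaction p below 0, with 1 point per array and a line at each group mean, in the order ein2 IAA, ein2 mock, Col IAA, Col mock. In AT3G47480 the Col IAA arrays (5.81 and 6.31) are alone high, and in AT1G64405 the ein2 mock arrays (5.74 and 5.39) stand above the Col mock arrays (3.815 and 3.89) while the IAA arrays overlap.

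Of the 12 single-locus probe sets with the smallest p above 0, 6 rose and 3 fell with IAA on the mean. In IAA 8 were higher in ein2 and 1 was lower, and in mock 4 were higher and 4 lower. Of all tested probe sets, 6.4% rose and 5.45% fell on the mean. In IAA 3.95% of all were higher in ein2 and 3.18% lower, and in mock 5.27% were higher and 5.67% lower. These counts too follow in part from the choice by the interaction. All 12 were separated, which again follows largely from their choice, and adjusted p values ran between 0.14 and 0.838 (limma).

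Among all tested probe sets 45 had a value above 4 in arrays of 1 group alone. They include AGO7, AT4G39720, AT1G05450 and AT1G79520, which entered the test through the ein2 IAA arrays, where they were highest, and a higher value in ein2 IAA is therefore no independent result for these 4 genes. AT4G26790 and AT5G22580 entered through ein2 arrays alone, as did AT1G63530 and AT5G38710 below. A higher value in ein2 is therefore no independent result for them. AT3G09280, AT1G22900 and PUCHI, also below, entered through IAA arrays alone, and a rise with IAA is no independent result for them.

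AGO7 came first. It encodes an argonaute protein that, guided by a microRNA, starts the production of small RNAs against auxin response factors. It read 4.41 and 4.485 in ein2 IAA, 3.28 and 3.13 in ein2 mock, 3.13 and 3.14 in Col IAA, and 3.08 and 3.215 in Col mock. The ein2 IAA arrays alone were high, and the other 6 arrays overlapped. AGO7 rose with IAA in ein2 by 1.25 ± 0.13 (2.37-fold, adjusted p = 0.000303), and the IAA effect in Col was -0.02 ± 0.13 (adjusted p = 0.972). The interaction was 1.26 ± 0.19 (adjusted p = 0.14, limma), with a 95% interval of 0.85 to 1.68. It ran between 1.19 and 1.34 with each array left out in turn.

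In the next 4 genes the signal in Col lay at or close to background, taken as 2.55, the highest lower quartile of any array, so an IAA effect in Col could not be measured there. Their interactions are therefore not measured differences between IAA effects, and their genotype differences are lower bounds. AT5G22580, a stress-responsive protein with an A/B-barrel fold, read 7.76 and 7.76 in ein2 IAA, 6.87 and 6.41 in ein2 mock, 2.38 and 2.35 in Col IAA, and 2.35 and 2.29 in Col mock. It was high in ein2 alone, and higher there in IAA. The fitted difference between genotypes was 5.39 in IAA (adjusted p = 1.16e-09) and 4.32 in mock (adjusted p = 1.4e-08), each a lower bound, and the fitted interaction was 1.07 (adjusted p = 0.19). The fitted interactions of AT4G39720 (a VQ-motif protein), AT4G26790 (a GDSL esterase/lipase) and AT1G05450 (a lipid-transfer protein) were 0.96, 1.17 and 0.81, all 3 genes were higher in ein2 in both treatments, and all 3 rose with IAA in ein2. With each array left out in turn, the fitted interaction ran between 0.84 and 1.30 for AT5G22580 and between 0.90 and 1.44 for AT4G26790.

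Another 3 genes were called between genotypes in IAA and not in mock. AT2G42350, a RING-type ubiquitin ligase, read 8.88 and 8.89 in ein2 IAA, 8.905 and 8.88 in ein2 mock, 8.24 and 8.17 in Col IAA, and 8.85 and 8.79 in Col mock. The Col IAA arrays alone were low. The IAA effect was -0.01 ± 0.09 in ein2 and -0.62 ± 0.09 in Col (adjusted p = 0.00207), ein2 stood 0.68 ± 0.09 higher in IAA (adjusted p = 0.000762), and the interaction was 0.61 ± 0.13 (adjusted p = 0.709). AT5G40020, a thaumatin-like protein, was higher in ein2 IAA by 0.61 ± 0.12 (adjusted p = 0.00704), with -0.04 ± 0.12 in mock. AT1G79520, a cation efflux protein, read 4.67 and 4.31 in ein2 IAA, 3.75 and 3.86 in ein2 mock, 3.78 and 3.815 in Col IAA, and 3.78 and 3.76 in Col mock, with ein2 minus Col of 0.69 ± 0.12 in IAA (adjusted p = 0.00507) and 0.04 ± 0.12 in mock.

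Of the 12, 4 were lower in ein2 mock. AT1G10340, an ankyrin-repeat protein, read 6.69 and 6.46 in ein2 IAA, 5.76 and 6.04 in ein2 mock, 7.26 and 7.36 in Col IAA, and 7.43 and 7.73 in Col mock. It was lower in ein2 in both treatments, by less in IAA (-0.73, adjusted p = 0.0103) than in mock (-1.68, adjusted p = 2.42e-05), with an interaction of 0.945 ± 0.21 (adjusted p = 0.741). AT1G08230, the GABA transporter GAT1, was lower in ein2 mock by 0.95 ± 0.14 (adjusted p = 0.000955), and its IAA effect was 0.07 ± 0.14 in ein2 and -0.72 ± 0.14 in Col (adjusted p = 0.00818). AT2G20670 and AT3G02070 were also lower in ein2 mock (-0.74 and -0.46).

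**Figure D3:**
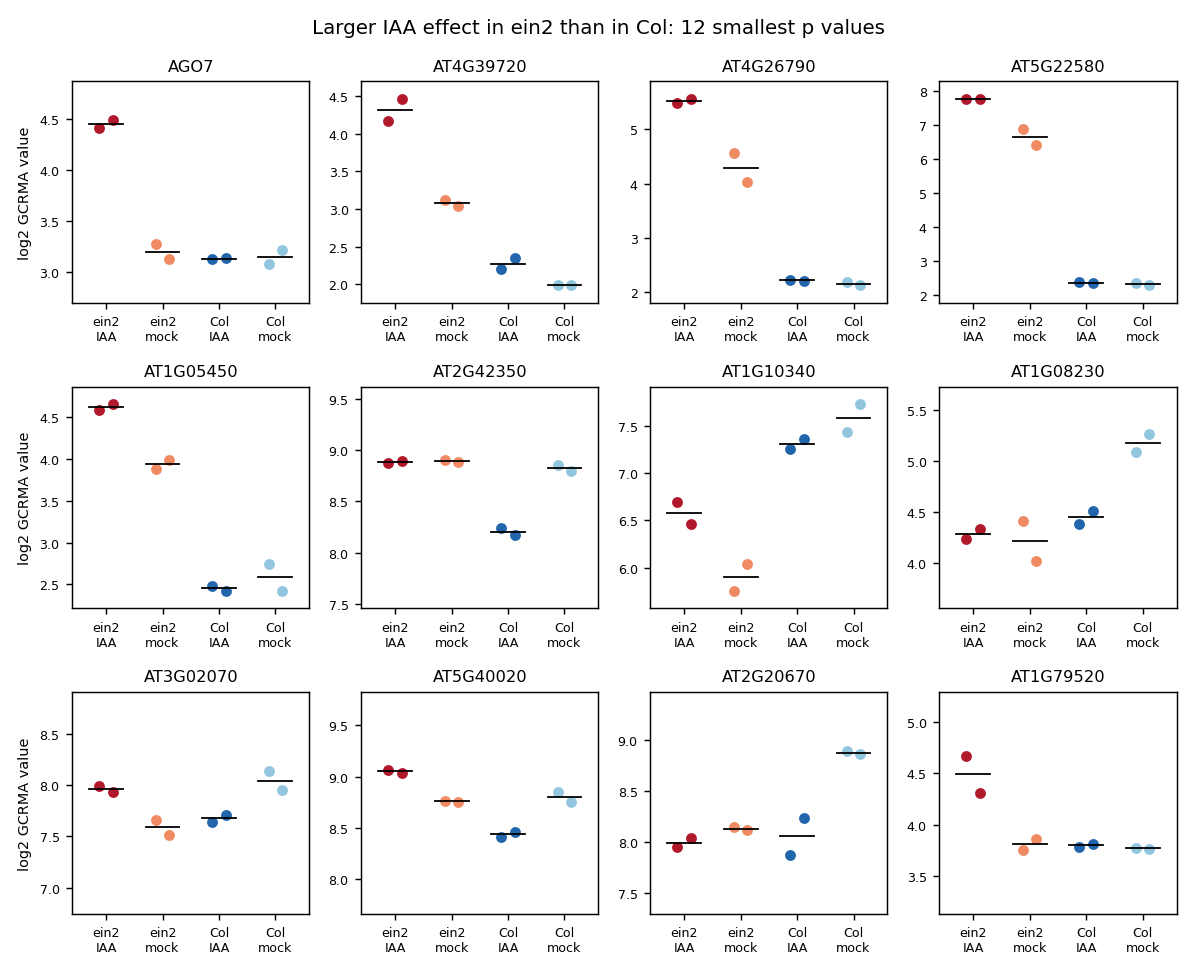
Log2 GCRMA values of the 12 single-locus genes with the smallest interaction p above 0, with 1 point per array and a line at each group mean, in the order ein2 IAA, ein2 mock, Col IAA, Col mock. In AGO7 the ein2 IAA arrays (4.41 and 4.485) lie above the other 6 arrays, and in AT2G42350 the Col IAA arrays (8.24 and 8.17) lie below the other 6.

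**Figure D4:**
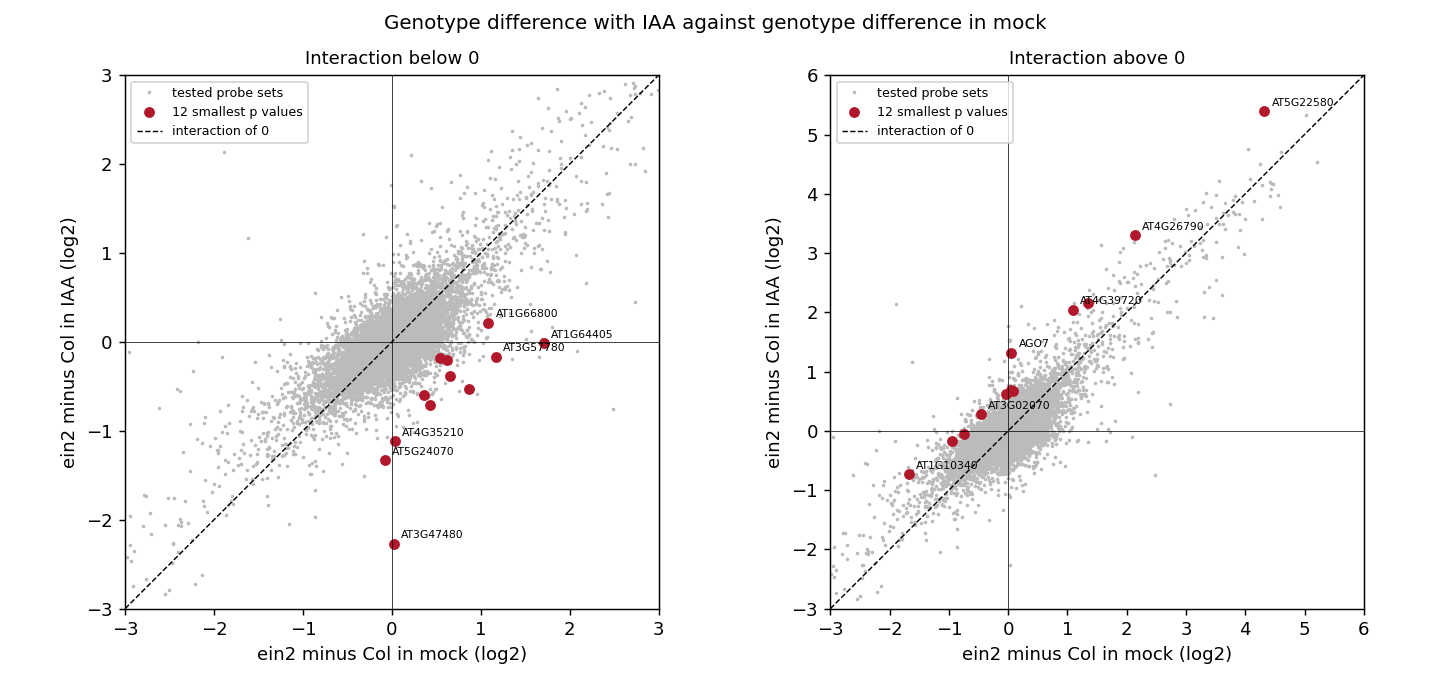
Genotype difference in IAA (y axis, ein2 IAA minus Col IAA, log2) against that in mock (x axis, ein2 mock minus Col mock, log2) for all tested probe sets in grey, with the 12 genes below 0 (left) and the 12 above 0 (right) in colour and 6 of each named. Distance from the diagonal is the interaction, and 112 probe sets on the left and 37 on the right lie outside the axes. AT3G47480 lies at -2.27 in IAA and 0.02 in mock, AT1G64405 at -0.01 in IAA and 1.71 in mock, and AGO7 at 1.32 in IAA and 0.05 in mock.

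Lists of auxin, ethylene and cell wall genes held 153 loci, and 24 of the 29 with a named probe set were tested. Of the 10 GH3 enzymes 4 were tested. The interaction was called for 0 of the 4 and lay below 0 in all 4 (median -0.44, against -0.02 over all tested probe sets), 3 rose with IAA in both genotypes (1.9% of all tested probe sets rose in ein2 and 4.09% in Col), 0 of the 4 were called between genotypes in IAA (7.13% of all) and 2 were higher in ein2 mock (5.27% of all). GH3.1 read 8.34 and 8.44 in ein2 IAA, 4.29 and 4.03 in ein2 mock, 8.79 and 8.32 in Col IAA, and 2.46 and 2.56 in Col mock. Its IAA arrays overlapped between genotypes, and its ein2 mock arrays lay above the Col mock arrays, whose mean was near background.

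GH3.1 rose by 4.23 in ein2 (adjusted p = 9.58e-05) and by at least 6.05 in Col (adjusted p = 3.67e-06), and its mock level was at least 3.14-fold higher in ein2 (fitted 1.65, adjusted p = 0.0186), both lower bounds because of the background in Col mock. Its fitted interaction was -1.82 ± 0.55 (unadjusted p = 0.00668, adjusted p = 0.988, limma), which rests on that background level. The mock call was lost without a filter (adjusted p = 0.05) and with any 1 of the 4 mock arrays left out (adjusted p 0.0646 to 0.115). GH3.17 was higher in ein2 mock by 0.498 ± 0.13 (adjusted p = 0.0284), again not called after median centring (adjusted p = 0.0557) or with single mock arrays left out (0.102 to 0.191). WES1 (GH3.5) read 12.2 and 12.3 in ein2 IAA, 8.65 and 8.565 in ein2 mock, 12.025 and 12.572 in Col IAA, and 8.445 and 8.72 in Col mock. The genotypes overlapped in both treatments, IAA raised WES1 by 3.685 in ein2 and 3.715 in Col, and the interaction was -0.03 ± 0.24, with a 95% interval of -0.56 to 0.50. GH3.3 rose by 5.31 in ein2 and 6.02 in Col, and its interaction of -0.71 ± 1.07 had an interval of -3.05 to 1.63. That SE takes in the Col air arrays, whose SD was 2.403, against 0.009 to 0.39 in the groups of the auxin experiment. Its mock difference of 0.84 was not called (adjusted p = 0.544, limma), but was in a fit to the auxin arrays alone (adjusted p = 0.0497).

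Of the 8 lateral root regulators 4 were tested, and 3 of them rose with IAA in both genotypes (1.9% of all tested probe sets in ein2 and 4.09% in Col). The 2 with an unadjusted interaction p under 0.05 (4.43% of all) had fitted interactions of opposite sign. LBD29, a transcription factor that acts in lateral root initiation, read 10.4 and 10.6 in ein2 IAA, 5.78 and 6.13 in ein2 mock, 10.2 and 10.6 in Col IAA, and 4.16 and 4.63 in Col mock. As in GH3.1, the genotypes overlapped in IAA and ein2 was higher in mock. It rose by 4.585 in ein2 and by 6.02 in Col, the interaction was -1.43 ± 0.40 (adjusted p = 0.904, limma, and 0.0459 with a term for the replicate number), and the mock level was 2.95-fold higher in ein2 (1.56 ± 0.285, adjusted p = 0.00466).

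PUCHI, an AP2/ERF transcription factor that shapes the lateral root primordium, had a fitted interaction of the other sign. It read 6.27 and 6.84 in ein2 IAA, 3.25 and 3.04 in ein2 mock, 4.385 and 5.11 in Col IAA, and 2.57 and 2.40 in Col mock. Its ein2 arrays lay above the Col arrays in both treatments, by more in IAA, and its Col mock arrays were near background. It rose by 3.41 in ein2 and by 2.265 in Col, which is a lower bound, and was 3.49-fold higher in ein2 IAA (1.80 ± 0.27, adjusted p = 0.00153). In mock the fitted ein2 minus Col was 0.66 ± 0.27 (adjusted p = 0.149), also a lower bound. The fitted interaction was 1.14 ± 0.38 (unadjusted p = 0.0113, adjusted p = 1, limma). It is an upper bound because of the background in Col mock, so its sign is not settled. LBD16 rose by 1.57 in ein2 and by 1.18 in Col with an interaction of 0.38 ± 0.29, and HAT2 had an interaction of -0.05 ± 0.22. The 1 tested Aux/IAA repressor of 25, IAA18, had an interaction of 0.06 ± 0.24. No gene of the auxin transport, auxin synthesis or ethylene synthesis lists had a named probe set.

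Among 18 ethylene signalling and response genes 3 were tested, and EIN2 itself had no named probe set. RTE1, which regulates an ethylene receptor, and ARL, which promotes cell expansion, were lower in ein2 in both treatments. Of all tested probe sets, 3.18% were lower in ein2 in IAA and 5.67% in mock. ARL read 3.67 and 3.86 in ein2 IAA, 3.82 and 3.84 in ein2 mock, 7.195 and 7.59 in Col IAA, and 7.08 and 7.68 in Col mock. The ein2 arrays were all low whether or not IAA was given. Its ein2 minus Col was -3.63 ± 0.35 in IAA (adjusted p = 6.84e-05) and -3.55 ± 0.35 in mock (adjusted p = 6.62e-05), and ethylene raised it in Col by 3.901 (adjusted p = 4.22e-05). RTE1 was lower in ein2 by 1.19 ± 0.18 in each treatment. The interactions were -0.08 ± 0.50 for ARL and 0.14 ± 0.20 for the transcription factor EIN3.

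Among 12 expansins, proteins that loosen the cell wall, 7 were tested. EXPA4, EXPA8, EXPB1 and EXPB3 were higher in ein2 in IAA (3.95% of all tested probe sets) and in mock (5.27% of all), and 0 of the 7 were lower in either. EXPA8 read 8.03 and 8.355 in ein2 IAA, 8.04 and 8.26 in ein2 mock, 6.495 and 6.67 in Col IAA, and 7.30 and 7.465 in Col mock. Its 4 ein2 arrays lay together above all Col arrays, and in Col the IAA arrays were below the mock arrays. The IAA effect was 0.05 ± 0.185 in ein2 (adjusted p = 0.963) and -0.80 ± 0.185 in Col (adjusted p = 0.0241), and the interaction was 0.85 ± 0.26 (adjusted p = 0.988, limma). Ethylene lowered EXPA8 in Col by 4.45 (adjusted p = 1.49e-07).

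EXPB1 fell with IAA by 1.32 in ein2 and by 1.64 in Col, with an interaction of 0.32 ± 0.22. EXPA4 was higher in ein2 by 1.49 ± 0.35 in IAA (adjusted p = 0.0236) and by 2.19 ± 0.35 in mock (adjusted p = 0.00195), with an interaction of -0.70 ± 0.49. EXPB3 was higher in ein2 by 2.91 ± 0.55 in IAA and by 2.71 ± 0.55 in mock, with an interaction of 0.205 ± 0.78. The IAA-level call of EXPA4 was lost with any of the 4 IAA arrays left out (adjusted p 0.0576 to 0.176) and with no filter (0.0631). The mock calls of EXPA8 and EXPB3 were lost with 4 and 3 of the mock arrays left out in turn, and that of EXPB1 with 3. The IAA-level call of EXPB3 was lost without Col IAA replicate 2 (adjusted p = 0.0775).

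Of 14 XTH enzymes, which cut and rejoin wall xyloglucan, 5 were tested. XTH20 read 9.70 and 10.3 in ein2 IAA, 10.0 and 10.2 in ein2 mock, 8.55 and 8.67 in Col IAA, and 7.56 and 7.84 in Col mock. All ein2 arrays were above all Col arrays. The IAA effect was -0.11 ± 0.24 in ein2 and 0.91 ± 0.24 in Col (adjusted p = 0.0444), and its interaction was -1.02 ± 0.34 (unadjusted p = 0.0118). It was 2.66-fold higher in ein2 IAA and 5.40-fold higher in ein2 mock. The interactions of XTH18, XTH19, XTH21 and XTH26 lay between -0.425 and 0.18, and XTH26 stood near background in all 8 arrays.

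Of 10 root hair genes 3 were tested, and no genotype difference was called in any of them. EXPA7 read 7.43 to 8.93 and EXPA18 read 7.40 to 8.99 over the 8 arrays, and XTH26 was near background, so root hair cells were represented by the 2 expansins alone. Endodermis, xylem and meristem marker lists had no tested gene, and the part of cell composition in the differences above was not tested.

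**Figure D5:**
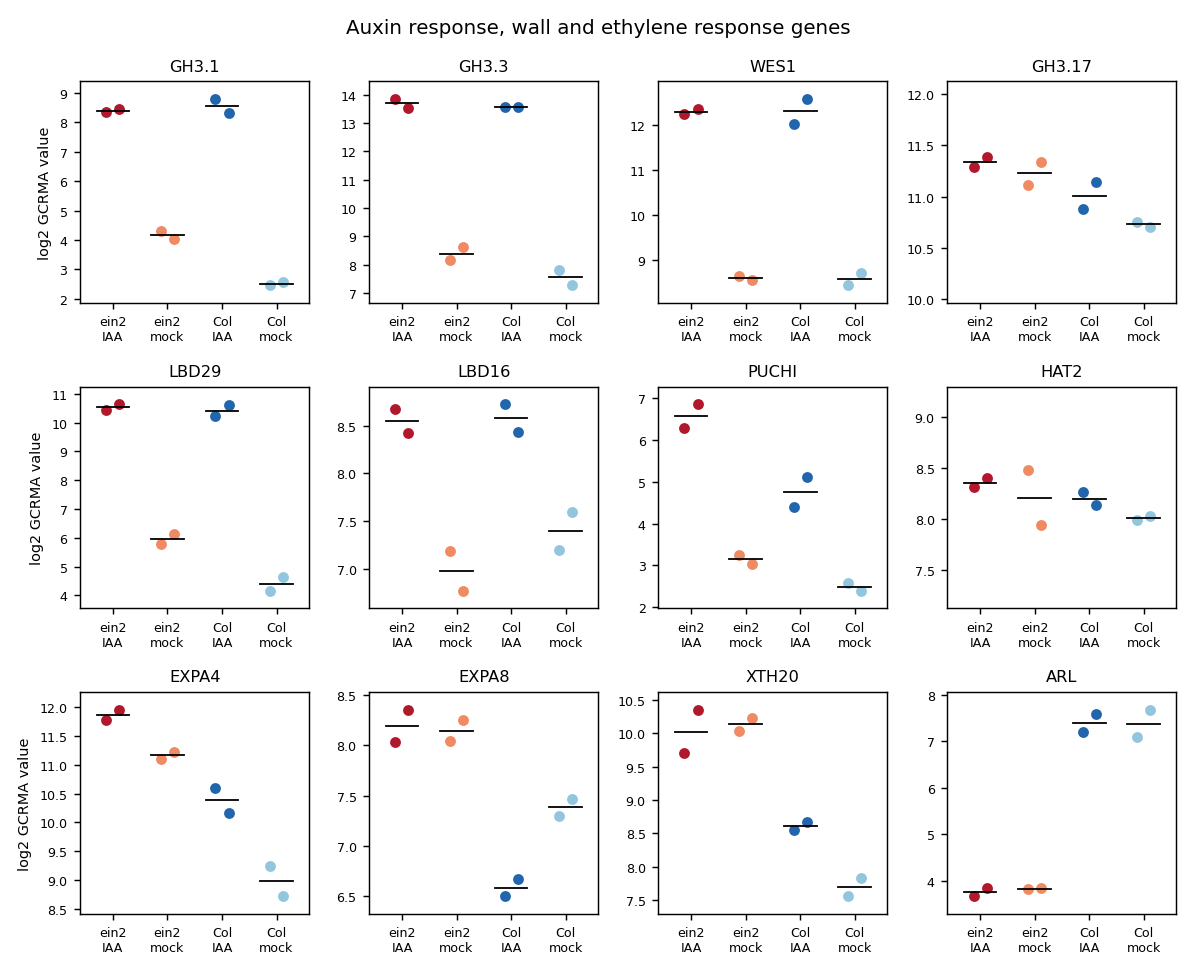
Log2 GCRMA values of GH3 enzymes (top), lateral root regulators (middle) and wall and ethylene response genes (bottom), with 1 point per array and a line at each group mean, in the order ein2 IAA, ein2 mock, Col IAA, Col mock. GH3.1 and LBD29 differ between genotypes in mock and overlap in IAA, PUCHI is higher in ein2 IAA (6.27 and 6.84) than in Col IAA (4.385 and 5.11), and ARL is low in all 4 ein2 arrays.

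Some large genotype differences came with an interaction near 0. FDH, the mitochondrial formate dehydrogenase, read 8.57 and 8.19 in ein2 IAA, 8.40 and 8.34 in ein2 mock, 10.9 and 10.8 in Col IAA, and 10.8 and 10.9 in Col mock. Its ein2 arrays were low in either treatment. It was lower in ein2 by 2.49 ± 0.13 in IAA and by 2.47 ± 0.13 in mock, and its interaction was -0.015 ± 0.19, with a 95% interval of -0.42 to 0.39. AT1G19530 was lower in ein2 by 3.61 in IAA and 3.71 in mock with an interaction of 0.10 ± 0.27. Both rose with ethylene in Col, by 1.77 and 1.14. AT2G40230 (interaction 0.01 ± 0.14), AT5G06570 (0.34 ± 0.20) and AT4G23510 (-0.08 ± 0.17) were also lower in ein2 in both treatments and rose with ethylene in Col.

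Genes higher in ein2 in both treatments included AT4G28940, by 4.705 ± 0.17 in IAA and 4.60 ± 0.17 in mock, and AT5G09480, by 3.48 and 3.62. Their interactions were 0.11 and -0.135. AT1G63530 was higher too, by at least 3.198 in IAA and 3.09 in mock, lower bounds because all 4 Col arrays were at background. Other such genes differed by unequal amounts. AT5G38710, a proline dehydrogenase, was higher in ein2 by 2.345 ± 0.18 in IAA and by 3.296 ± 0.18 in mock, with an interaction of -0.95 ± 0.25 (adjusted p = 0.819). Like AT1G63530, AT5G38710 entered the test through ein2 arrays alone. AT3G22060 was higher by 2.78 in IAA and 2.22 in mock, with an interaction of 0.56 ± 0.17 (adjusted p = 0.988).

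The transcripts with the smallest p for the mean IAA effect moved the same way in both genotypes, which a ranking by the mean of the 2 effects favours. CLE44, which encodes a peptide that keeps vascular stem cells dividing, rose by 3.41 in ein2 and 3.57 in Col (interaction -0.15 ± 0.22, 95% interval -0.64 to 0.33), and AT3G09280 rose by 2.20 in ein2 and 2.05 in Col (0.15 ± 0.12). The dirigent gene AT1G22900 rose by at least 3.86 in ein2 and at least 4.73 in Col, lower bounds because all 4 mock arrays were at background, which leaves its interaction unmeasured, and its IAA level was lower in ein2 (-0.82 ± 0.18, adjusted p = 0.016). Of the genes that fell, AT2G39040, a class III peroxidase, fell by 1.55 in ein2 and by 1.43 in Col. AT4G01140 fell by 1.58 in ein2 and by 1.92 in Col, AT1G76240 fell by 1.23 in ein2 and by 1.05 in Col, and AT3G19320 fell by 1.15 in ein2 and by 1.62 in Col. Their interactions were -0.12, 0.335, -0.18 and 0.47, and the 95% interval of each included 0.

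Set beside the calls for each level, the 911 raised probe sets included 90 that were not called in IAA and higher in ein2 in mock (9.88%, against 2.44% over all tested probe sets). The class III peroxidase gene AT5G14130 was among them, with 10.4 and 10.4 in ein2 IAA, 9.24 and 9.36 in ein2 mock, 9.43 and 9.775 in Col IAA, and 7.54 and 7.49 in Col mock. The Col mock arrays stood far below the other 6. So was AT5G62350, a pectin methylesterase inhibitor-like protein, with 11.2 and 11.2 in ein2 IAA, 10.5 and 10.3 in ein2 mock, 10.6 and 10.4 in Col IAA, and 9.29 and 8.88 in Col mock. Being called in mock and not in IAA is not a test of the difference between the levels.

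The 777 lowered probe sets included 33 that were higher in ein2 in IAA and not called in mock (4.25%, against 1.12% over all). Ethylene in Col was called for 1246 tested probe sets (8.75%), 567 higher (3.98%) and 679 lower (4.77%), and it lowered 26 of these 33. Among all tested probe sets with the same genotype calls as the 33, ethylene lowered 44 of 159. It lowered 226 of the 777 in all (29.1%). GH9B13, an endoglucanase of the cell wall, read 9.32 and 9.43 in ein2 IAA, 10.1 and 10.1 in ein2 mock, 8.45 and 8.585 in Col IAA, and 9.82 and 9.70 in Col mock. The Col IAA arrays were the lowest and the ein2 IAA arrays lay between them and the mock arrays. AUR2, an Aurora kinase of cell division, read 6.96 and 7.07 in ein2 IAA, 7.27 and 7.39 in ein2 mock, 6.33 and 6.15 in Col IAA, and 7.02 and 7.27 in Col mock. The Col IAA arrays of AUR2 were again the lowest. Of the 25 raised probe sets that were lower in ein2 at both levels, ethylene raised 17 in Col, and of the 34 that were higher at both levels it lowered 14. Among all tested probe sets, ethylene raised 119 of the 350 lower in ein2 at both levels. It lowered 105 of the 404 higher at both.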

How the data were processed

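The authors deposited 1 log2 expression value per probe set and array for 16 Affymetrix arrays, made with GCRMA per the submitters' processing notes. Its version and settings are not given in the sources used here, and the deposited numbers (1.24 to 15.398, array medians 5.872 to 6.002) were taken to be log2 because of their range. The deposited values were used unchanged, and 0 columns were left unmapped. Arrays carry no read depth, so precision is set by having 2 arrays per group. limma 3.58.1 in R 4.3.3 fitted the 8 group means over 16 arrays (8 residual and 3.36 prior degrees of freedom), and p-values, two-sided, were adjusted by Benjamini-Hochberg over all 14244 probe sets above the filter. Intervals are 95% intervals from the moderated fit. The procedure was tested on simulated data.

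Genes were named where a probe set had 1 locus. The text names the 12 smallest interaction p values of each sign, the 5 smallest per direction for each genotype difference and for the mean IAA effect, and list members that were called or had an unadjusted interaction p under 0.05. The examples of level patterns, the photosynthesis genes and the unlisted probe sets were chosen after their values were seen. The interaction, the gene lists and the rules were all chosen with earlier results of these data known. Alternatives were a filter at 6 or none, centring or quantile scaling, single-locus probe sets, a fit to the auxin arrays, a block for replicate number and omission of single arrays. A planned promoter motif search was not run.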

Additional observations from a re-analysis of the deposited data

How the results depend on the processing

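The 2 arrays per group limit all values. Over the 19 summary results, 367 of 481 recomputed values kept their direction and stayed near the reported value, 112 moved and 2 reversed. Among named genes 2464 of 2528 kept direction and call, 25 lost a call, 14 gained one and 25 reversed.

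The interaction was called for 3 probe sets with no filter, for 5 with a replicate block, for 2 among single-locus probe sets only (AT3G47480 and AT1G64405, adjusted p = 0.0318) and for 0 to 6 with 1 array left out: 6 without Col mock replicate 2 (LHCB4.1, AT1G74470 and unlisted probe sets), 3 without ein2 mock replicate 1, and 2 without Col IAA replicate 1, Col IAA replicate 2 or either aux1 air array. The replicate numbers do not name a shared batch. The deviations of same-numbered arrays correlated at 0.109 to 0.413 across pairs of auxin groups, and the 5 calls under the block were AT5G55050, LBD29, AT3G47480, AT1G64405 and an unlisted probe set (adjusted p = 0.0459 each). The block also gave 747 calls for IAA in ein2, 1604 for IAA in Col, 1531 for ein2 minus Col in IAA and 2398 in mock, 1053 interactions with an unadjusted p under 0.05 (242 on the IAA side, 514 on the mock side, 297 in both), a median interaction of -0.16 in raised probe sets, and 778 lowered probe sets above 0.

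Unadjusted p under 0.05 was met by 979 interactions with no filter (271 on the IAA side and 458 on the mock side), by 1056 in the auxin experiment only (250, 514 and 292 in both) and by 348 among single-locus probe sets (93, 166 and 89). Single-locus probe sets, which are fewer, gave 946 calls for the mean IAA effect, 224 in ein2, 528 in Col, 512 for ein2 minus Col in IAA and 761 in mock, 386 raised below 0, 273 lowered above 0 and 1715 separated effects. A size limit of 2-fold gave 270 calls for the mean IAA effect, 212 in ein2, 318 in Col, 465 for ein2 minus Col in IAA and 564 in mock. In raised probe sets the median mock difference was 0.173 after median centring, 0.169 after quantile normalization, 0.158 with no filter and 0.211 among single-locus probe sets. The median interaction there was -0.157 with no filter, and the median IAA-level difference was -0.021 after median centring and 0.016, a reversal, among single-locus probe sets. Lowered probe sets had medians of ein2 minus Col of 0.109 in IAA and 0.018 in mock after median centring.

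With each array left out in turn, calls ranged over 1035 to 1758 for the mean IAA effect, 201 to 485 for IAA in ein2, 413 to 1043 for IAA in Col, 515 to 1053 for ein2 minus Col in IAA (515 to 676 without an IAA array) and 787 to 1664 in mock (787 to 865 without a mock array). Interactions with an unadjusted p under 0.05 numbered 450 to 763, with 94 to 204 on the IAA side, 155 to 346 on the mock side and 135 to 221 in both. Separated effects numbered 3128 to 6038, more where fewer arrays had to be separated. In raised probe sets 428 to 701 lay below 0, with medians of -0.232 to -0.138 for the interaction, -0.026 to 0.033 for ein2 minus Col in IAA and 0.148 to 0.239 in mock. In lowered probe sets 281 to 513 lay above 0, with medians of 0.033 to 0.171 for the interaction, 0.075 to 0.232 for ein2 minus Col in IAA and 0.005 to 0.107 in mock.

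Named values that reversed were all near 0 and uncalled. WES1 in mock was -0.003 after median centring. With 1 array left out the interactions ran over -0.284 to 0.284 for RTE1, -0.377 to 0.215 for ARL, -0.304 to 0.243 for WES1, -0.134 to 0.544 for EXPB3 and -0.023 to 0.389 for XTH21. The mock differences ran over -0.116 to 0.16 for WES1 and -0.076 to 0.335 for XTH21. The IAA-level differences ran over -0.403 to 0.066 for GH3.1, -0.175 to 0.111 for LBD16, -0.07 to 0.326 for LBD29, -0.023 to 0.289 for GH3.3 and -0.282 to 0.265 for WES1. The cause of these moves was not tested beyond the fewer probe sets or arrays that a setting itself removes.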

Other observations

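Among the probe sets that the annotation did not list, the 3 with the smallest interaction p all lay above 0. The first read 4.93 and 4.66 in ein2 IAA, 2.47 and 2.51 in ein2 mock, 8.575 and 9.26 in Col IAA, and 8.75 and 9.11 in Col mock. It was low in ein2 in both treatments and lowest in ein2 mock, where it was near background. Its ein2 minus Col was -4.13 ± 0.27 in IAA and -6.44 in mock, where the background limits the size, and its fitted interaction was 2.32 (adjusted p = 0.183, limma). The second had ein2 minus Col of -2.17 ± 0.25 in IAA and -3.82 ± 0.25 in mock, and an interaction of 1.65 ± 0.36 (adjusted p = 0.715). Ethylene raised both in Col, by 2.75 and 1.01. The third had an interaction of 0.92 ± 0.21 (adjusted p = 0.794) and rose with IAA in ein2 by 0.65 (adjusted p = 0.0355), against -0.27 in Col (adjusted p = 0.358).

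Raised probe sets that changed 2-fold or more on the mean (196) had an interaction below 0 in 138 (70.4%), with a median of -0.26. Lowered probe sets of that size (74) had one above 0 in 56 (75.7%), with a median of 0.25. TRM28, of a family of microtubule-associated proteins, was lower in ein2 at both levels, with 7.42 and 7.28 in ein2 IAA, 5.74 and 6.02 in ein2 mock, 8.965 and 9.41 in Col IAA, and 6.88 and 7.66 in Col mock. GSTU16, a glutathione transferase, was lower in ein2 at both levels too, with 5.30 and 5.55 in ein2 IAA, 4.70 and 3.79 in ein2 mock, 6.44 and 6.85 in Col IAA, and 6.37 and 6.07 in Col mock.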
